A study of Mus musculus with 2 samples.

Results

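The killing programme of lymphocytes was followed through 10 genes, Gzma, Gzmb, Gzmk, Prf1, Nkg7, Ctsw, Fasl, Tnfsf10, Klrd1 and Klrk1, in single liver cells of mice on a NASH-promoting diet. The members were the rows of the count matrix with these symbols, 10 of 32285 genes, and all 10 were found. The labels name 1 liver sample of genotype Cebp KO and 1 of genotype Cebp WT, both from mice given a 40% HFCFD (high fat, cholesterol and fructose) for 2 weeks. The series describes the knockout as specific to hepatocytes, and the study's methods obtained such mice by crossing Cebpa fl/fl animals with a Cre line driven by albumin, a hepatocyte gene. The lymphocytes of both samples were therefore not the cells targeted, and the study's methods state that its mice were male. The age and number of mice behind each sample were not found in the labels or methods.

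Both samples were joined in 1 matrix whose barcodes end in the suffix 1 or 2, and no label ties a suffix to a genotype. The 2 libraries are called library 1 and library 2 here after that suffix, no genotype was assigned to either, and knockout and wild type were not compared. Pairs of values below are always in the order library 1, library 2. Comparisons were made between cell classes of the same library. With 1 library per genotype there was no replicate and no test was run, and all intervals are 95% intervals of counting error only.

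Cytotoxic lymphocytes kill in 2 main ways. In the granule pathway perforin, the product of Prf1, opens the target membrane to granzymes, serine proteases stored in the same granules, while Nkg7 is a granule membrane protein and Ctsw a protease of the cathepsin family that is typical of cytotoxic cells. In the death ligand pathway Fas ligand (Fasl) and TRAIL (Tnfsf10) bind receptors on the target. The receptors that release or hold back the attack include NKG2D (Klrk1), which is activating, and CD94 (Klrd1), which pairs with NKG2 chains. The liver is rich in natural killer (NK) cells, type 1 innate lymphoid cells (ILC1) and resident T cells that carry the chemokine receptor Cxcr6.

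RefSeq promoter windows, the 250 bases before the gene start on GRCm38.p6, were at hand for 8 of the 10 members, and not for Klrd1 and Ctsw. They were searched on both strands for the letters of 4 families of factors active in lymphocytes: GGTGTGA (T-box), TGTGGTT (Runx), TGANTCA (AP-1) and CCGGAAGT (Ets). Of the windows of 27025 genes, 3.31% held the T-box letters, 4.46% the Runx letters, 6.87% the AP-1 letters and 2.93% the Ets letters. Matches were found in Gzma, Gzmb, Gzmk, Nkg7 and Klrk1, and none in Prf1, Fasl and Tnfsf10. The 3 granzymes and Nkg7 are printed because their levels over lymphoid classes, given below, set them apart from each other. Their windows lie at chr13:113100982-113101231 (Gzma, minus strand), chr14:56262335-56262584 (Gzmb, minus), chr13:113180966-113181215 (Gzmk, minus) and chr7:43436888-43437137 (Nkg7, plus). Each runs 5′ to 3′ in the direction of the gene, and capitals mark the matched letters.
Gzma: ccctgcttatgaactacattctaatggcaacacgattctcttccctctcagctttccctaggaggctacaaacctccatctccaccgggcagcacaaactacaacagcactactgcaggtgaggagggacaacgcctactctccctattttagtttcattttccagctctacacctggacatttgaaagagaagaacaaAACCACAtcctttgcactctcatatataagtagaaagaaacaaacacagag
Gzmb: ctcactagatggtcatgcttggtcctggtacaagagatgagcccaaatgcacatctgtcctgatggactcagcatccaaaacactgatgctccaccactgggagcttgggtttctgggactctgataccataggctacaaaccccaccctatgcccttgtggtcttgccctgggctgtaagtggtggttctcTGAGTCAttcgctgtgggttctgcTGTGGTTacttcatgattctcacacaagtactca
Gzmk: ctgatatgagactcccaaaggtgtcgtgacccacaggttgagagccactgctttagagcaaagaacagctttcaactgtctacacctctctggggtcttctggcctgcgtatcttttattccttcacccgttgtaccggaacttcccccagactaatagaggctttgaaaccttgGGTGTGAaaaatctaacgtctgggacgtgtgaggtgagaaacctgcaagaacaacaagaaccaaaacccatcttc
Nkg7: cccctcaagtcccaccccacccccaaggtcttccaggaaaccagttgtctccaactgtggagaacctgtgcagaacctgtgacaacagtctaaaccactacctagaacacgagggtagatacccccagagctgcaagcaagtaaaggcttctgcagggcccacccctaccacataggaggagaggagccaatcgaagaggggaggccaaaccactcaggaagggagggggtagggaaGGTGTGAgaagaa
The Runx letters lay on the other strand 51 to 45 bases before the start of Gzma and on the same strand 34 to 28 bases before that of Gzmb. Gzmb also held the AP-1 letters 58 to 52 bases before its start. The T-box letters lay 75 to 69 bases before the start of Gzmk and 13 to 7 bases before that of Nkg7. In Klrk1 the Runx letters lay 129 to 123 bases before the start. The start is that of the RefSeq window, which for Gzmb lies upstream and for Nkg7 downstream of the GENCODE start. For Gzmk it lies inside the GENCODE span of the gene given below. A match describes these letters alone, and binding was not measured.

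Gzma and Gzmk are near each other on chromosome 13, and Klrd1 and Klrk1 on chromosome 6 (GENCODE M21 on GRCm38). Gzma spans chr13:113093825-113100981 and Gzmk chr13:113171608-113225908, both on the minus strand. Klrd1 spans chr6:129591782-129598775 on the plus strand and Klrk1 chr6:129610323-129623864 on the minus strand. The annotated span of Gzmk crosses Esm1 and that of Ctsw crosses Fibp, each on the opposite strand. Whether intronic reads were counted was not stated, so counts of Gzmk and Ctsw carry that limit.

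The libraries held 17313 and 15003 barcodes with a median of 1515 and 2076 UMIs (unique molecular identifiers, each marking 1 captured RNA molecule). The limit of 25% mitochondrial UMIs was passed by 32.8% and 59.4% of the barcodes, and 11617 and 6088 cells were kept, with 12346 and 9473 UMIs of the 10 members. Cells were put in classes by marker genes, none of them a member. The lymphoid classes were NK/ILC1 (62 and 50 cells), CD8 T (174 and 105), Cxcr6+ T without CD8 (308 and 341) and T without CD8 and Cxcr6 (154 and 140), with B cells (182 and 157) as the lymphocytes that should lack the programme. Median UMIs per cell were 3759.5 and 3673.0 in NK/ILC1, 5114.5 and 4812.0 in CD8 T and 3579.5 and 3097.0 in B cells. Library 1 and library 2 shared 34 barcodes among kept cells and 0 among NK/ILC1 and T cells.

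The marker levels of the classes follow from the gates and are given as a description. The NK/ILC1 gate admitted no cell with a UMI of Cd3d, Cd3e or Cd3g. Ncr1 (the NK receptor NKp46) was found in 90.3% and 84.0% of cells at 1005 and 730.8 CPM, the UMIs of a gene summed over the cells of a class per 1000000 UMIs of that class, which is the scale of every level below. Eomes, a factor of NK cells rather than ILC1, was found in 16 and 14 of them and Cxcr6 in 16 and 12, so the class held cells with markers of both. In a clustering made without the members, 52 of the 112 NK/ILC1 cells fell in the NK cluster and 54 in clusters named Cxcr6+ T. The 6 T markers summed to 547.5 and 560.4 CPM there against 2998 to 3808 in the CD8 T classes with and without Cxcr6. In CD8 T cells Cd8a was found in 139 of 174 and 83 of 105 cells, and Ncr1 was at 43.32 and 41.82 CPM.

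The members were mostly lymphoid. NK/ILC1 and T cells together held 83.0% and 80.1% of all member UMIs in kept cells. For Gzma the share was 90.3% and 88.6%, for Prf1 90.7% and 89.5% and for Nkg7 88.8% in both libraries. It was lowest for Tnfsf10, at 47.6% and 53.7%, the member most widely used outside lymphocytes. In NK/ILC1 all 10 members summed to 9752 and 6792 CPM, in CD8 T to 3164 and 3029, in Cxcr6+ T without CD8 to 2070 and 1854 and in T without CD8 and Cxcr6 to 1055 and 1535. Of the 10 members 9 and 7 had their highest level of these 4 classes in NK/ILC1. Members were not ranked against each other, since 3′ UMI counts depend on each gene's capture.

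**Figure D1:**
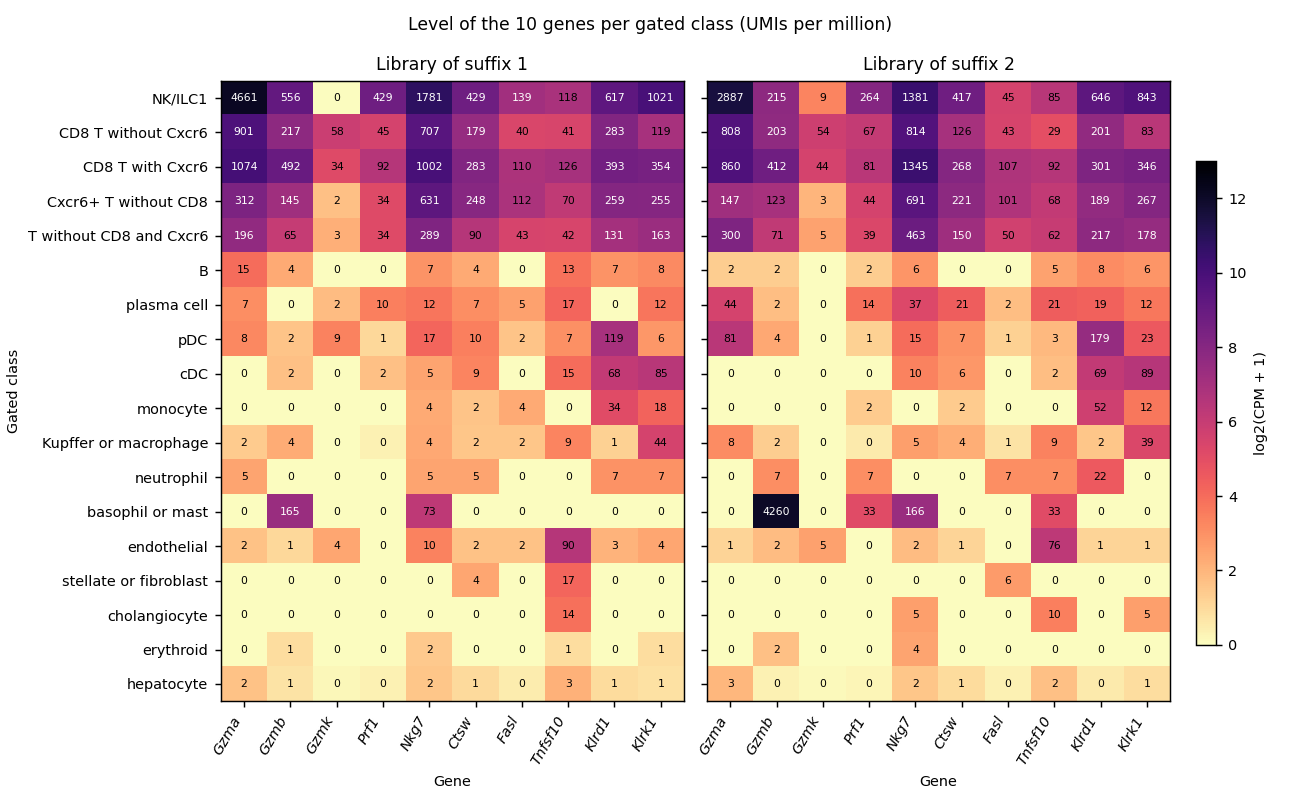
Level of each member (columns) in each marker-gated class (rows), one panel per library. Numbers are CPM rounded to whole units and colour is log2(CPM + 1). The top 5 rows, all lymphoid, hold most of the high levels. Exceptions include Klrd1 in dendritic cells, Klrk1 in conventional dendritic cells and Kupffer cells, Tnfsf10 in endothelial cells and Gzmb in basophils or mast cells. The 4260 CPM of Gzmb in the 8 basophils or mast cells of library 2 came mostly from 1 cell.

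Gzma, the tryptase-like granzyme A, was higher in NK/ILC1 than in each T cell class. Its level was 4661 CPM [4395-4940] and 2887 [2669-3119] in NK/ILC1 against 973.3 [914.2-1035] and 830.1 [761.3-903.5] in CD8 T, a ratio of 4.79 [4.40-5.22] and 3.48 [3.10-3.91]. In Cxcr6+ T without CD8 it stood at 311.9 and 146.6, and in T without CD8 and Cxcr6 at 195.5 and 300.5. The order of the last 2 classes was opposite in the 2 libraries. Single cells ran from 0 to 74 UMIs with a median of 16.0 in NK/ILC1 of library 1, and from 0 to 70 with a median of 8.50 in library 2. Among CD8 T cells the median was 0 and the highest cell had 94 and 83 UMIs, so the class level came from the 29.3% and 29.5% of cells with any Gzma UMI. Leaving out the highest cell left 888.9 and 710.4 CPM in CD8 T and 4431 and 2674 in NK/ILC1.

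Gzmb, the caspase-cleaving granzyme B, did not keep that order. NK/ILC1 had 555.6 CPM [466.2-657.2] and 215.2 [158.7-285.3], and CD8 T 332.1 [298.0-369.1] and 291.2 [251.0-335.9]. The ratio of NK/ILC1 to CD8 T was 1.67 [1.36-2.05] in library 1 and 0.739 [0.527-1.02] in library 2, whose interval held equality. A Gzmb UMI was found in 45 of 62 and 18 of 50 NK/ILC1 cells, at near equal median depth of the class. Cxcr6+ T without CD8 followed with 145.2 and 122.8 CPM and T without CD8 and Cxcr6 with 64.80 and 71.25. A single cell of Cxcr6+ T without CD8 in library 2 held 47 of 207 Gzmb UMIs, and the level without it was 95.16.

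Gzmk, granzyme K, had 50 of 75 and 32 of 48 UMIs of kept cells in CD8 T cells. CD8 T cells had 50 and 32 UMIs, that is 48.14 CPM [35.73-63.46] and 49.56 [33.90-69.96], in 13.8% and 17.1% of cells. The NK/ILC1 class had 0 UMIs in library 1, where a count of 0 allows 3 UMIs or 12.26 CPM, and 2 UMIs in library 2. Against those 3 UMIs CD8 T was 3.93-fold higher than NK/ILC1 in library 1, where the exact interval of the ratio began at 3.08. In library 2 CD8 T was 5.53-fold higher [1.41-47.6]. Cxcr6+ T without CD8 had 4 and 5 UMIs in 308 and 341 cells, T without CD8 and Cxcr6 had 3 in each library, and B cells had 0 in both. Plasmacytoid dendritic cells of library 1 had 9, of which 7 were in 1 cell, and endothelial cells had 4 in each library. With classes from Leiden clusters the NK/ILC1 ratio of library 2 turned (1.17, with 3 UMIs added). Within CD8 T of library 1, 7 cells held Gzmk with Gzma and 17 held Gzmk without it. In library 2 the counts were 10 and 8.

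Prf1, the pore former, was the member with the largest NK/ILC1 excess over CD8 T in library 1. NK/ILC1 stood at 429.0 CPM [350.9-519.3] and 264.5 [201.4-341.2] and CD8 T at 64.50 [49.99-81.91] and 72.79 [53.48-96.80], a ratio of 6.65 [4.85-9.18] and 3.63 [2.44-5.45]. The T cell classes without CD8 lay lower and close together, with 34.03 and 43.91 in Cxcr6+ T without CD8 and 34.11 and 38.72 in T without CD8 and Cxcr6. These 2 intervals overlapped in both libraries. In T without CD8 and Cxcr6 of library 1, 1 cell held 10 of the 30 Prf1 UMIs.

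Nkg7 and Ctsw marked the whole cytotoxic compartment. Nkg7 was found in 59 of 62 and 44 of 50 NK/ILC1 cells, 87.4% and 88.6% of CD8 T cells and 82.1% and 86.5% of Cxcr6+ T without CD8, but in 56 of 154 and 70 of 140 of T without CD8 and Cxcr6. In B cells it was found in 1.10% and 2.55%. Levels of Nkg7 were 1781 CPM [1618-1957] and 1381 [1231-1544] in NK/ILC1, 830.8 and 1038 in CD8 T, 631.2 and 691.3 in Cxcr6+ T without CD8 and 288.8 and 463.1 in the remaining T cells. Ctsw followed the same order in library 1 except that Cxcr6+ T without CD8, at 248.4, lay above CD8 T, at 222.4. In library 2 the Ctsw levels were 417.0 in NK/ILC1, 185.9 in CD8 T, 221.3 in Cxcr6+ T without CD8 and 150.2 in the remaining T cells.

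The death ligands were spread more evenly. Fasl was at 138.9 CPM [96.20-194.1] and 44.83 [21.50-82.45] in NK/ILC1, from 34 and 10 UMIs, at 112.3 [97.20-129.1] and 100.9 [86.28-117.2] in Cxcr6+ T without CD8 and at 69.31 and 69.69 in CD8 T. NK/ILC1 was above CD8 T in library 1, with a ratio of 2.00 [1.29-3.05], while in library 2 the ratio was 0.643 [0.289-1.29]. Tnfsf10 had 118.5 CPM [79.35-170.2] and 85.18 [51.29-133.0] in NK/ILC1, 77.02 and 55.76 in CD8 T and 70.33 and 68.24 in Cxcr6+ T without CD8. The NK/ILC1 to CD8 T ratio of Tnfsf10 was 1.54 [0.970-2.38] and 1.53 [0.828-2.74], and both intervals held equality.

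The receptors leaned to NK/ILC1. Klrk1 stood at 1021 and 842.9 CPM in NK/ILC1 and 217.6 and 193.6 in CD8 T, a ratio of 4.69 [3.91-5.64] and 4.35 [3.45-5.50]. Klrd1 was at 616.9 [522.4-723.5] and 645.6 [544.5-760.1] in NK/ILC1 and 329.2 and 243.2 in CD8 T, a ratio of 1.87 [1.54-2.28] and 2.66 [2.10-3.35]. Both receptors were found in the same cell in 52 of 62 and 38 of 50 NK/ILC1 cells. In CD8 T cells that held for 55 of 174 and 32 of 105, and 60 and 32 cells had Klrd1 alone against 11 and 9 with Klrk1 alone.

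**Figure D2:**
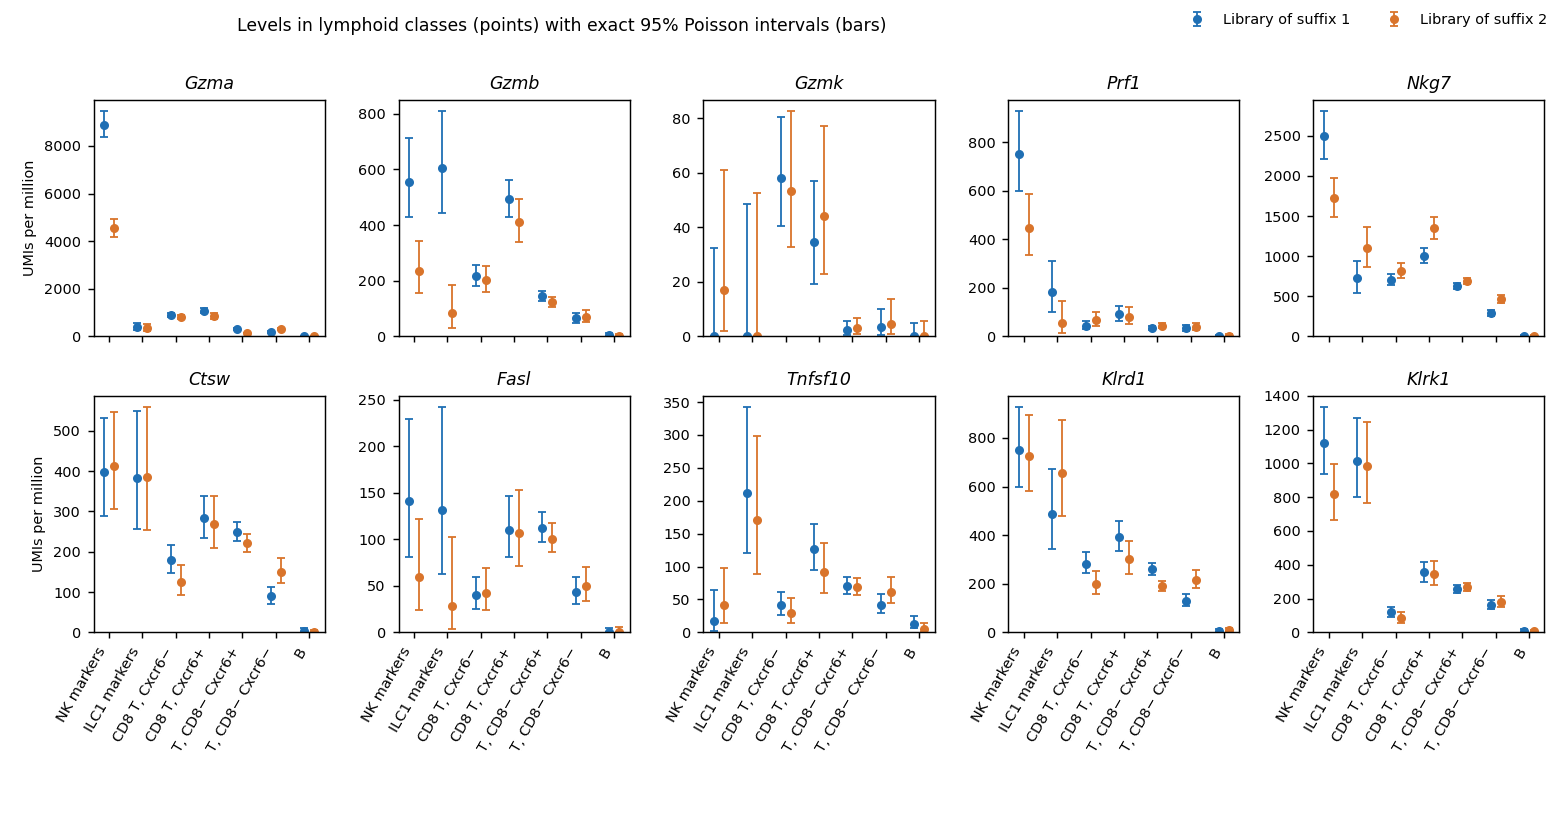
Level of each member in CPM (vertical axis, linear and of its own range in each panel) in 7 lymphoid classes (horizontal axis), with NK/ILC1 shown as cells with only NK markers and cells with only ILC1 markers. Points are the 2 libraries and bars exact 95% Poisson intervals. Gzma, Prf1 and Nkg7 were highest in NK-marker cells, Tnfsf10 was highest in ILC1-marker cells, Gzmk in the CD8 T classes, and every member was near 0 in B cells.

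Shares of cells with a UMI move with depth and with free RNA, so cells were also thinned to 2000 UMIs each, and shallower cells were left out (5 and 2 of NK/ILC1, 8 and 8 of B). Gzma was then found in 68.4% and 62.5% of NK/ILC1 cells, Nkg7 in 91.2% and 81.2% and Klrk1 in 78.9% and 83.3%. No member was found in more than 1.15% and 1.34% of the thinned B cells. Before thinning the highest share of B cells was 2.75%, for Tnfsf10 in library 1, and all 11 Gzma UMIs of B cells in that library were in 1 cell.

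Most NK/ILC1 cells held several members. A median of 7 and 6 of the 10 members was detected per cell, the highest cell had 9 and 7, and 87.1% and 78.0% of cells had 5 or more. CD8 T with Cxcr6 had a median of 6 and 5, CD8 T without Cxcr6 of 3 in both libraries and Cxcr6+ T without CD8 of 4 and 3. The remaining T cells had 1 and 2, with no member detected in 42.9% and 34.3%. Of the B cells 94.0% and 93.6% had none. Among CD8 T cells of library 1, Gzma and Gzmb were found together in 46 cells, Gzma alone in 5 and Gzmb alone in 27. In library 2 the counts were 23, 8 and 12.

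To set the members beside all genes, each gene with at least 10 UMIs in both classes together was given a ratio of CPM with 3 UMIs added to both sums, and called higher or lower at 2-fold or more. Between NK/ILC1 and CD8 T, 5 of the 10 members were higher in NK/ILC1 in each library, and 1 was lower. Of all genes 14.9% and 11.6% were called higher and 1.92% and 2.26% lower. The added UMIs raise genes of few counts in the class with fewer UMIs. With 10 CPM added instead, a choice made after seeing the data, 3.54% and 4.24% of all genes were higher and 5.73% and 5.47% lower, and the members gave 4 and 5 higher and 1 lower in each library. Gzma, Prf1 and Klrk1 were higher by the 3-UMI rule in both libraries, Nkg7 and Fasl in library 1 alone, and Klrd1 and Ctsw in library 2 alone. Gzmk was the lower one in both. With classes from Leiden clusters 8 members were higher in library 1, and shares of all genes were not computed for those classes. With marker gates the 5 of library 1 became 3 with no mitochondrial limit and with cells of other lineages kept. In library 2 the ratio of Gzmk, from 2 against 32 UMIs, turned from 0.414 to 1.17 with Leiden clusters. The median ratio of the members was 2.03 and 1.95, and that of all genes 1.31 and 1.21.

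**Figure D3:**
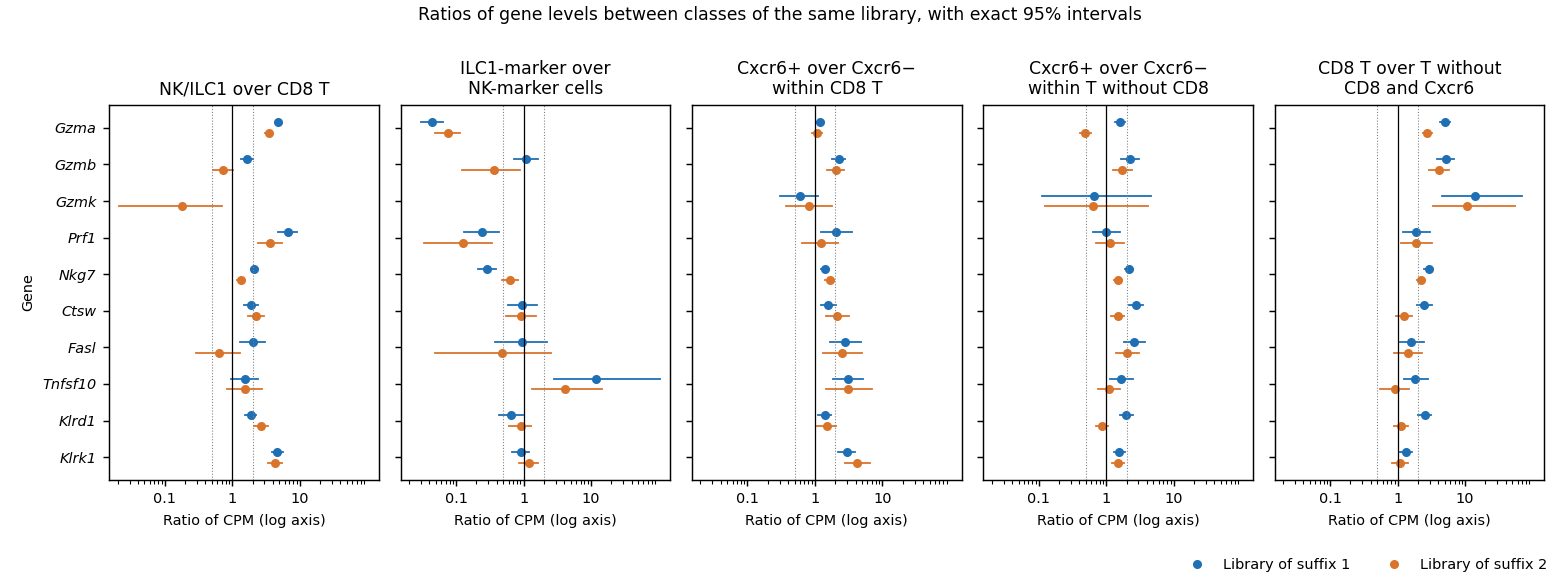
Ratio of CPM between 2 classes of the same library for each member (log axis), with points for the 2 libraries, bars for exact 95% intervals, a solid line at equality and dotted lines at 2-fold. Prf1, Gzma and Klrk1 lay to the right in NK/ILC1 over CD8 T, Tnfsf10 alone lay to the right in ILC1-marker over NK-marker cells in both libraries, and Gzmb, Fasl, Tnfsf10 and Klrk1 lay past 2-fold in CD8 T cells with Cxcr6 in both libraries, where Nkg7, Klrd1 and Ctsw also lay to the right. Gzmk has no point where a class had 0 UMIs.

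Within NK/ILC1, Gzma, Prf1 and Tnfsf10 differed by more than 2-fold between cells with NK markers and cells with ILC1 markers in both libraries. Cells with at least 1 UMI of Eomes, Itga2, S1pr5, Klra4, Klra7 or Klra8 and none of Cxcr6, Cd200r1, Itga1 and Il7r were taken as NK-marker cells (31 and 27), and the opposite as ILC1-marker cells (18 and 17). Gzma stood at 8897 CPM [8356-9463] and 4540 [4165-4941] in NK-marker cells and at 395.5 [266.9-564.7] and 341.5 [218.8-508.1] in ILC1-marker cells, 22.5-fold [15.7-33.5] and 13.3-fold [8.84-20.9] higher in the former. It was found in 31 of 31 and 24 of 27 NK-marker cells and in 5 of 18 and 3 of 17 ILC1-marker cells. The Gzma level of ILC1-marker cells was below that of CD8 T in both libraries. T cells also had ILC1 markers, with Il7r in 54.0% and 66.7% and Itga1 in 43.1% and 34.3% of CD8 T cells. T markers summed to 712.0 and 1153 CPM in ILC1-marker cells and 229.5 and 295.4 in NK-marker cells, and their part in these differences was not tested.

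Prf1 showed the same split, at 750.2 and 447.3 CPM in NK-marker cells against 184.6 and 56.91, 4.06-fold [2.29-7.75] and 7.86-fold [2.90-29.9] higher. Nkg7 was 3.44-fold [2.57-4.69] and 1.57-fold [1.20-2.07] higher in NK-marker cells. TRAIL went the other way: Tnfsf10 was at 211.0 and 170.7 CPM in ILC1-marker cells (16 and 12 UMIs) against 17.65 and 42.20 in NK-marker cells (2 and 5 UMIs), a ratio of NK-marker to ILC1-marker cells of 0.0837 [0.00933-0.356] and 0.247 [0.0682-0.754]. Klrk1 and Ctsw had intervals that held equality. For Klrk1 the ratio of ILC1-marker to NK-marker cells was 0.906 [0.673-1.21] and 1.20 [0.868-1.65], and for Ctsw 0.963 [0.582-1.57] and 0.929 [0.558-1.52]. For Klrd1 it was 0.650 [0.430-0.967] and 0.902 [0.616-1.30]. Gzmb had different orders in the 2 libraries, at 606.5 CPM in ILC1-marker and 556.0 in NK-marker cells of library 1, and at 85.37 and 236.3 in library 2, from 6 and 28 UMIs.

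By the 2-fold rule 1 of 9 and 1 of 8 members tested was higher in ILC1-marker cells and 3 in each library were lower. Of all genes 8.81% and 12.7% were called higher and 6.19% and 5.72% lower (9.37%, 12.2%, 11.9% and 13.3% with 10 CPM added). The 3 lower members of library 1 became 7 with cells of other lineages kept, where shares of all genes were not computed. Members called in both libraries were Tnfsf10, higher, and Gzma and Prf1, lower. Nkg7 was called lower in library 1 and Gzmb in library 2. Of the 43 other genes of the pathway that were no gate marker, 19 and 18 had enough UMIs, of which 1 in each library was higher and 4 and 1 lower. Xcl1, a chemokine that draws dendritic cells, was the 1 higher in ILC1-marker cells, at 857.0 and 782.6 CPM against 70.61 and 253.2. Zeb2, a factor of mature NK cells, was lower in both libraries, at 13.18 and 28.46 CPM against 1306 and 827.1, from 1 and 2 UMIs against 148 and 98.

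CD8 T cells were split by Cxcr6. Of the 163 without it, clustering put 94 in CD8 T and 39 in Cxcr6+ T clusters, and of the 116 with it 42 and 66. Klrk1 stood at 119.2 and 82.97 CPM in CD8 T cells without a Cxcr6 UMI (104 and 59 cells) and at 354.1 and 345.5 in those with one (70 and 46), a ratio of 2.97 [2.23-3.99] and 4.16 [2.75-6.47]. Fasl was at 39.75 and 42.83 without and 110.4 and 106.6 with Cxcr6, a ratio of 2.78 [1.67-4.74] and 2.49 [1.31-4.91]. Tnfsf10 was at 41.40 and 29.44 without and 126.5 and 91.89 with Cxcr6, a ratio of 3.05 [1.87-5.12] and 3.12 [1.48-7.03]. Gzmb had 217.0 and 203.4 without and 492.0 and 411.7 with Cxcr6, a ratio of cells without to cells with Cxcr6 of 0.441 [0.352-0.551] and 0.494 [0.364-0.667].

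Gzma and Gzmk stayed within 2-fold between CD8 T cells with and without Cxcr6. The ratio with to without Cxcr6 was 1.19 [1.05-1.35] and 1.06 [0.893-1.27] for Gzma, and 0.595 [0.302-1.12] and 0.824 [0.367-1.77] for Gzmk. By the 2-fold rule 4 of 10 members were higher with Cxcr6 in each library and 0 lower, against 6.49% and 6.86% of all genes higher and 2.59% and 2.87% lower (3.23% and 4.94% higher, 2.29% and 3.79% lower with 10 CPM added). Fasl, Tnfsf10 and Klrk1 were called in both libraries, Gzmb in library 1 and Ctsw in library 2. The 4 calls of library 2 became 2 with a mitochondrial limit of 10% and with means over cells, where Fasl and Ctsw were lost. Gzmb of library 2 passed 2-fold as a plain ratio but fell just short of it with 3 UMIs added. Median depth of the 2 groups was 5256.5 without and 5033.0 with Cxcr6 in library 1, and 4812.0 and 4957.0 in library 2. NK marker genes, which the gate did not use to split CD8 T cells, summed to 808.2 and 505.9 CPM without and 1665 and 999.8 with Cxcr6, and their part in these ratios was not tested.

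T cells without CD8 were split by Cxcr6 in the same way. Fasl was at 43.20 and 49.57 CPM in T without CD8 and Cxcr6, and the ratio of Cxcr6+ cells to these was 2.60 [1.83-3.78] and 2.04 [1.39-3.07]. For Nkg7 it was 2.19 [1.91-2.52] and 1.49 [1.31-1.70], for Ctsw 2.77 [2.17-3.56] and 1.47 [1.18-1.86], and for Prf1 0.998 [0.634-1.60] and 1.13 [0.712-1.86]. Of 9 members tested 4 were higher in library 1 (Gzmb, Nkg7, Fasl and Ctsw) and 0 in library 2. Leiden clusters put 143 of the 294 cells gated as T without CD8 and Cxcr6 in clusters named Cxcr6+ T. With classes from these clusters 9 members were higher in each library and 1 lower in library 1, and shares of all genes were not computed. With marker gates the 4 of library 1 became 2 with a mitochondrial limit of 10% or means over cells, and 1 with stricter gates. T markers summed to 2390 and 3629 CPM in T without CD8 and Cxcr6 and to 3900 and 4154 in Cxcr6+ T without CD8, hepatocyte markers took 5.08% and 4.15% of UMIs against 3.39% and 3.38%, and their part in the ratios was not tested. Gzma was lower in library 2, with a ratio of 0.488 [0.403-0.592], and higher by less than 2-fold in library 1, with 1.60 [1.34-1.90]. The lower call of Gzma was lost without its highest cell in each class, and its ratio with 3 UMIs added turned from 0.486 to 21.4 with Leiden clusters. Of all genes 3.02% and 1.24% were higher and 8.60% and 7.01% lower (1.58% and 0.813% higher, 1.93% and 1.22% lower with 10 CPM added).

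Over all T cells, with CD8 or without, 2 and 1 of the 10 members were higher in Cxcr6+ cells (Fasl in both libraries, Ctsw in library 1) and 1 was lower (Gzmk in both). Of all genes 3.28% and 2.04% were higher and 5.33% and 4.96% lower (1.01% and 0.722% higher, 0.882% and 0.870% lower with 10 CPM added, where 1 and 0 members were higher and 0 lower). The ratio of Gzmk was 0.337 [0.184-0.600] and 0.385 [0.193-0.753]. Cxcr6+ T cells were mostly without CD8, and those had almost no Gzmk. Within CD8 T cells the interval of Gzmk held equality. The part of the mix of cells with and without CD8 in the ratio was not tested.

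CD8 T cells stood above T cells with neither CD8 nor Cxcr6 in the granzymes. Gzma was 4.98-fold [4.23-5.89] and 2.76-fold [2.34-3.27] higher, Gzmb 5.13-fold [3.86-6.91] and 4.09-fold [2.95-5.77], and Nkg7 2.88-fold [2.50-3.32] and 2.24-fold [1.95-2.58]. Gzmk had 50 and 32 UMIs against 3 and 3, a ratio of 14.1 [4.56-70.7] and 10.7 [3.34-54.4]. Klrk1, with 1.34 [1.08-1.66] and 1.09 [0.837-1.41], stayed under 2-fold, as did Tnfsf10, with 1.83 [1.23-2.78] and 0.900 [0.557-1.45]. By the 2-fold rule 6 and 4 of the 10 members were higher and 0 lower. Of all genes 4.55% and 2.21% were higher and 8.11% and 2.97% lower. With 10 CPM added these shares were 1.94% and 1.12% higher and 4.08% and 1.11% lower. With Leiden clusters 10 members were higher in library 2, and shares of all genes were not computed for those classes. In CD8 T the T markers summed to 3253 and 3339 CPM and hepatocyte markers took 2.59% and 3.70% of UMIs, against the values of T without CD8 and Cxcr6 given above, and their part was not tested.

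T cell subsets were set apart by further marker genes. T cells without CD8 that had a Cd4 UMI had 5.165 and 68.30 CPM of Gzma, and all 40 UMIs of library 2 were in 1 cell. Their Nkg7 was at 316.8 and 457.6. T cells without CD8 that had a Trdc UMI, the constant gene of gamma delta receptors (32 and 37 cells), had 1034 [893.4-1190] and 271.7 [202.3-357.2] of Gzma and 570.2 and 351.6 of Klrk1. NK markers summed to 1881 and 1289 CPM in these cells and to 368.5 and 469.5 in those with Cd4, and their part was not tested. Among Cxcr6+ T without CD8, cells with Zbtb16 or Klrb1c (229 and 254), both genes of natural killer T cells, had 358.3 and 180.6 of Gzma against 137.7 and 24.51 in cells with neither (79 and 87). NK markers, which include Klrb1c, summed to 1040 and 993.9 CPM against 491.4 and 580.1, and their part was not tested. Gzmb was at 138.6 [119.7-159.6] and 96.36 [80.33-114.6] against 170.1 [130.7-217.6] and 217.9 [172.8-271.2]. The intervals of library 1 overlapped, and the last value was 90.82 without 1 cell of 47 UMIs. Fasl was near equal, at 112.0 and 100.2 against 113.4 and 103.5.

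Outside NK and T cells 4 members were also found in other classes. Klrd1 was found in 54.8% and 54.7% of plasmacytoid dendritic cells at 119.4 CPM [98.63-143.2] and 179.1 [149.9-212.4], with 116 and 132 UMIs against 17 and 11 of Nkg7 in the same cells. In NK/ILC1 Klrd1 had 151 and 144 UMIs against 436 and 308 of Nkg7. Conventional dendritic cells had 67.53 and 69.19 CPM of Klrd1. Those with Cd209a or Clec10a alone (11 and 15 cells) had 557.1 and 213.1, and those with Xcr1 or Clec9a alone (41 and 43 cells), markers of the cross-presenting type, had 8.678 and 39.02. Monocytes had 33.98 and 51.97.

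Klrk1 was found in 30.1% and 24.8% of Kupffer cells and other macrophages at 43.90 and 39.11 CPM, from 159 and 180 UMIs against 15 and 24 of Nkg7. In cells of this class with a Clec4f or Timd4 UMI, both Kupffer cell genes, it was at 46.24 and 40.23. The adaptors of the receptor were present in the same class, Hcst at 63.23 and 51.06 CPM and Tyrobp at 1284 and 1537. Conventional dendritic cells had 84.70 and 89.47 CPM of Klrk1.

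Tnfsf10 was at 90.16 CPM [72.02-111.5] and 75.50 [57.75-96.98] in endothelial cells, in 35.9% and 28.0% of them, close to its level in NK/ILC1. These cells held 85 of 567 and 61 of 391 of the gene's UMIs in kept cells. The hepatocyte gate held 85 of 567 and 27 of 391 at only 3.367 and 2.308 CPM, through its 9294 and 3834 cells. Gzmb in the basophil or mast cell gate (13 and 8 cells) was at 164.6 CPM [75.27-312.5] from 9 UMIs and at 4260 from 128 UMIs. In library 2 a single cell held 111 of the 128, and the level without it was 670.7. Other high values outside lymphocytes also rested on 1 cell, as for Gzma in plasmacytoid dendritic cells of library 2, where 59 of 60 UMIs were in 1 cell.

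**Figure D4:**
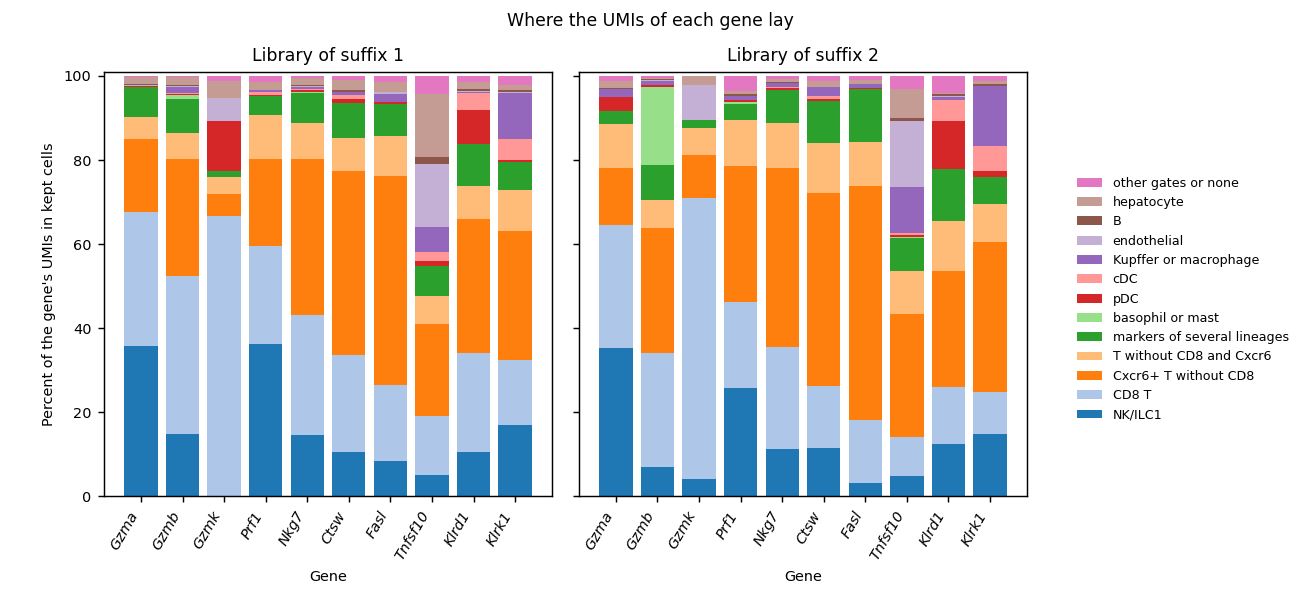
Share of each member's UMIs in kept cells (vertical axis, percent) by class, one bar per gene and one panel per library. NK/ILC1 and T cells took 47.6% and 53.7% of Tnfsf10 and a larger share of every other gene, and endothelial cells, Kupffer cells and the hepatocyte gate took much of the rest of Tnfsf10. Gzmk lay mostly in CD8 T cells, and 18.5% of Gzmb in library 2 lay in 8 basophils or mast cells.

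Cells with markers of several lineages were kept out of the gates, 109 and 95 of them. They had Nkg7 at 165.8 and 227.7 CPM and Gzma at 169.6 and 62.58. No doublet caller was run, so mixed droplets that escaped the gates remain.

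The wider pathway was read through 48 further genes, of which 43 were no gate marker. Between NK/ILC1 and CD8 T, 30 and 29 of these 43 had enough UMIs, and 11 and 10 were higher in NK/ILC1 and 1 and 0 lower, against 14.9% and 11.6% of all genes higher and 1.92% and 2.26% lower. With 10 CPM added 9 in each library were higher and 2 and 1 lower, against 3.54% and 4.24% of all genes higher and 5.73% and 5.47% lower. The granzyme inhibitor Serpinb9 was at 220.6 and 134.5 CPM against 45.25 and 37.17. Klrc1, the NKG2A partner of Klrd1, was at 249.2 and 237.6 against 58.73 and 55.76, and the adaptor Tyrobp at 1822 and 1506 against 209.9 and 120.8. Hcst, the adaptor of NKG2D, was not called, at 473.9 and 237.6 against 463.1 and 360.9.

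The other granzymes were scarce. Gzmd, Gzme, Gzmg and Gzmn had 0 UMIs in the lymphoid classes. Gzmm, granzyme M, was at 31.77 and 34.07 CPM in CD8 T, from 33 and 22 UMIs, and had 2 and 3 UMIs in NK/ILC1, which the 2-fold rule did not call. Gzmc was at 15.31 and 6.527 CPM in Cxcr6+ T without CD8, from 27 and 11 UMIs. Zfp683, a factor of resident lymphocytes, was at 18.15 and 21.36 in the same class and at 0 UMIs in NK/ILC1 of both libraries.

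The pathway list was counted in the T cell comparisons too. In CD8 T with Cxcr6 over CD8 T without it, 7 of 30 and 6 of 26 genes that were no gate marker were higher and 0 lower, against 6.49% and 6.86% of all genes higher. Of the genes that were no gate marker, 9 of 31 and 4 of 29 were higher in CD8 T than in T without CD8 and Cxcr6, with 1 and 2 lower. In Cxcr6+ T over T without Cxcr6, 3 of 32 and 3 of 31 were higher and 2 and 3 lower (1 in each library higher and 0 and 2 lower with 10 CPM added, against 1.01% and 0.722% of all genes higher and 0.882% and 0.870% lower). All-gene shares were 4.55% and 2.21% higher and 8.11% and 2.97% lower in the former comparison, and 3.28% and 2.04% higher and 5.33% and 4.96% lower in the latter. Ccl5, a chemokine of effector lymphocytes, was at 7626 and 7160 CPM in CD8 T against 1950 and 2949 in T without CD8 and Cxcr6, and at 12077 and 7492 in NK/ILC1. On the target side Fas, the receptor of Fas ligand, was at 84.86 and 77.98 CPM in endothelial cells and 16.24 and 13.59 in the hepatocyte gate.

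Over 16 classes in both libraries (32 points, which share libraries and depth), the genes whose log2(CPM + 10) most followed the mean of the members were Cd160 (Pearson r 0.986), Samd3 (0.984), Cst7 (0.978), Apol7e (0.977) and Sytl3 (0.976), out of 14033 genes that were neither members nor gate markers. Sh2d2a, Klrc2, Klrc1, Nlrc3 and Ccl5 followed with 0.975 to 0.965. Among the members themselves Ctsw (0.988) and Nkg7 (0.987) were most like the mean of the others. Gzmk was least alike, with 0.628, and Tnfsf10 next, with 0.781.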

How the data were processed

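Single liver cells of 2 samples were measured by 10x 3′ sequencing. The authors deposited UMI counts per gene and barcode in 1 joined matrix, and the submitters' processing notes name mm10, Cell Ranger 7.1.0, STAR 2.7.2a and bcl2fastq 2.20.0. Cells with at least 500 UMIs, 200 genes and at most 25% UMIs of 13 mitochondrial genes were kept. They were classed by marker genes that hold no member. The markers were listed first, and the UMI thresholds were set after marker levels were seen. Cells whose leading lineage had under 3 times the marker UMIs of the next were left out, and no doublet caller was run. Counts were summed per class and library. Intervals of 95% are exact Poisson for levels, Clopper-Pearson for shares and exact conditional binomial for ratios. A count of 0 was taken to allow 3 UMIs.

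The libraries held 60048646 and 52355243 UMIs. Ratios added 3 UMIs to both sums, needed 10 UMIs in both classes together and were called at 2-fold. The rule was tried on simulated Poisson sums, with changes larger than the threshold in well-counted genes alone. It was not tried on smaller changes, on scarce genes or on sums that rest on few cells. The genes named are the 10 members, 48 listed pathway genes and the 10 genes most alike. Members and lists were chosen with earlier results of these data known. Alternatives were other cell filters and gates, Leiden clusters, means over cells, thinning, B cell subtraction and a fold of 3. Adding 10 CPM and leaving out the highest cell were chosen after seeing the data. Python 3.11.15, numpy 2.4.6, scipy 1.17.1, pandas 2.3.3, scikit-learn 1.9.0, igraph 0.11.9 and matplotlib 3.10.9 were used, with GENCODE M21 for positions.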

Additional observations from a re-analysis of the deposited data

Results flagged for a closer look

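Droplets over the limit of 25% mitochondrial UMIs took no part in the comparisons, yet they held member UMIs above the 3 UMIs that a count of 0 allows. In library 1, 5675 such droplets held 415 UMIs of the 10 members, or 22.43 CPM. In library 2, 8886 held 477, or 18.05 CPM. Of these droplets 4839 and 7885 met the hepatocyte gate, 559 and 485 met no gate, and 28 and 36 met an NK/ILC1 or T gate.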

How the results depend on the processing

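Of the 228 counts of members called under an alternative, 178 stayed within 1.5 times the main count and 50 moved. The number of members highest in NK/ILC1 (9 and 7) was 8 to 9 in library 1 and 7 to 8 in library 2 over the alternatives run. In NK/ILC1 over CD8 T of library 1, the 5 higher members became 3 with no mitochondrial limit, 3 with cells of other lineages kept, 8 with Leiden clusters and 3 at a fold of 3. In library 2 they became 3 at a fold of 3, and the 1 lower became 0 with Leiden clusters and at a fold of 3. For Cxcr6+ T over T without Cxcr6 in library 1, the 2 higher became 1 with a mitochondrial limit of 10%, stricter gates, means over cells or 10 CPM added, 4 with other lineages kept and 0 at a fold of 3, and the 1 lower became 0 at a fold of 3 and with 10 CPM added. In library 2 the 1 higher became 2 with no mitochondrial limit and 0 with the limit of 10%, stricter gates, means, a fold of 3 or 10 CPM added, and the 1 lower became 2 with the limit of 10%, stricter gates or means and 0 at a fold of 3 or with 10 CPM added. For CD8 T over T without CD8 and Cxcr6 the 6 higher of library 1 became 3 at a fold of 3, and the 4 of library 2 became 10 with Leiden clusters and 2 at a fold of 3. For ILC1 over NK markers the 3 lower of library 1 became 7 with other lineages kept. Within CD8 T the 4 higher with Cxcr6 in library 1 became 0 at a fold of 3, with 1 lower under stricter gates, and the 4 of library 2 became 2 with the limit of 10% or means and 1 at a fold of 3. Without CD8, the 4 higher with Cxcr6 in library 1 became 2 with the limit of 10% or means, 1 with stricter gates, 9 with Leiden clusters (and 1 lower) and 0 at a fold of 3. In library 2 the 0 higher became 1 with no limit or other lineages kept and 9 with Leiden clusters, and the 1 lower (Gzma) became 0 under these 3, at a fold of 3, with 10 CPM added and without the highest cell. With Leiden clusters 2 called ratios of library 2 reversed: Gzmk in NK/ILC1 over CD8 T, 0.414 to 1.17, and Gzma in Cxcr6+ T over T without CD8 and Cxcr6, 0.486 to 21.4. The cause was not tested. Leiden clusters gave no classes for the ILC1, all-T Cxcr6 and CD8 Cxcr6 comparisons. Shares of all genes were computed with the main filters and gates alone. Of single-member ratios 970 of 1093 kept their call (higher, lower or within the fold). Direction was not checked for ratios within the fold. No paired analysis was possible because the labels give 1 sample per genotype and no column is tied to one. Small classes and single cells of high Gzma or Gzmb limit the precision. Leiden clusters moved 54 of 80 levels out of their main interval, and keeping cells with markers of other lineages moved 47 of 120. Means over cells moved 32 of 120, stricter gates 30, the mitochondrial limit of 10% 15 and leaving out the highest cell 13.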
